A study of Homo sapiens with 44 samples.

Results

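Transcripts of 7 genes were followed through cardiac differentiation of human embryonic stem cells: LIN28A, LIN28B, HMGA2, HMGA1, IGF2BP1, IGF2BP2 and IGF2BP3. They were chosen by name as regulators of the fetal type that were proposed to be lost slowly, set against the fast loss of pluripotency. Each symbol was matched to 1 Ensembl identifier, and the 7 are among 60499 genes listed in the count table. All 7 had enough counts to enter the test, with 22955 genes in all.

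LIN28A and LIN28B are RNA-binding proteins that block the maturation of the let-7 microRNAs and are abundant in stem cells and early embryos. HMGA2 and HMGA1 are small chromatin proteins that bind AT-rich DNA, and IGF2BP1, IGF2BP2 and IGF2BP3 bind messenger RNAs and affect their stability, location and translation. HMGA2, LIN28B and IGF2BP1 are textbook targets of let-7, so the blocker and its target can hold each other down. In heart and other tissues most of these genes are known as fetal genes that are low in the adult.

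The cells were the line H1, obtained from WiCell. Pluripotent cells on the laminin LN-521 form the group Pluri (3 libraries), and cultures coated with both LN-521 and LN-221 were sampled at days 0, 1, 3, 5, 7, 9, 11, 14, 20, 30 and 90 (D0 to D90). Day 0 cells were confluent stem cells in Nutristem medium. CHIR99021, an inhibitor of GSK3 that activates Wnt signalling, was given at day 0, and IWP2, which stops Wnt secretion, at day 3, in RPMI with B27 lacking insulin; from day 11 on the medium held CTS B-27. Groups hold 3 libraries, or 5 at D5, D7, D9 and D11. The series text gives triplicate wells for D11 while the labels give 5 libraries, and all 5 were used. Each library comes from 1 well, and replicate numbers are those of the labels. Nothing in the labels says that wells were started as separate cultures, so p-values measure the spread between these wells. H1 is 1 line, without a second line or an untreated culture of the same age.

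Levels are CPM, counts per 1000000 counts after TMM scaling (the trimmed mean of M values), unless TPM, which divides by transcript length, is named. To be called, a gene needed a Benjamini-Hochberg adjusted p below 0.05 in edgeR (quasi-likelihood test, all genes together) and a log2 change of 1 or more in either direction. Total estimated counts per library ran from 6937136 to 33498022 with a median of 26010763, and RNA integrity numbers from 7.4 to 10. In these total-RNA libraries protein-coding genes held 15.4% to 41.9% of TPM, so TPM moves with the share of other RNA and is used for comparing genes within a library. The summed CPM of 6 cardiomyocyte markers (TNNT2, MYH6, MYH7, ACTN2, MYL7 and NKX2-5) was 33.2 to 54.2 at D0, 6196 to 14431 at D9 and 14991 to 50664 at D90. All 6 of 6 hepatic or endoderm markers (AFP, ALB, APOA1, TTR, SERPINA1, FOXA2) were also called higher at D9 than at D0, with a summed CPM of 3.53 to 10.9 at D0, 673 to 6768 at D9 and 9.32 to 213 at D90. Of the other marker lists, 6 of 6 fibroblast or epicardial, 3 of 3 smooth muscle and 3 of 4 endothelial genes were called higher at D9, where 17.1% of all genes were. At D90 against D9, 4 of 4 endothelial, 5 of 6 hepatic, 3 of 4 epithelial, 1 of 6 cardiomyocyte and 1 of 5 pluripotent genes were called lower, beside 12% of all genes. Called higher were 4 of 6 cardiomyocyte, 3 of 6 fibroblast or epicardial, 2 of 3 smooth muscle and 1 of 4 neural genes, beside 11.9%. The part of these marker levels in the members' levels was not tested. The wells were bulk samples, in which fewer cells of a type and less RNA per cell cannot be told apart.

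The let-7 family is printed because it joins the members: LIN28 proteins act on its precursors, and the members' messengers hold matches to its seed. Pairing was not measured. In RefSeq (GRCh38.p14) 9 mature names share bases 2 to 8, shown in capitals in the following 4.
hsa-let-7a-5p: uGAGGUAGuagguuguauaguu
hsa-let-7b-5p: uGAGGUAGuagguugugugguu
hsa-let-7c-5p: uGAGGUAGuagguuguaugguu
hsa-miR-98-5p: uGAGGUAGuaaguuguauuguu

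LIN28 proteins hold let-7 precursors in part through the sequence GGAG. Of 12 let-7 family hairpins, 9 have GGAG after the mature arm and 3 (MIRLET7A3, MIRLET7B and MIR98) do not. The hairpins that lie inside 3 measured host transcripts follow, with every GGAG after the mature arm in capitals. MIRLET7C has a second GGAG at position 80 of its 84 bases, near the end of the hairpin. Binding by LIN28 was not measured. MIRLET7A2 lies in MIR100HG, MIRLET7C in MIR99AHG, and MIRLET7A3 and MIRLET7B in MIRLET7BHG, all on the strand of the host.
MIRLET7A2, chr11:122146522-122146593, minus strand: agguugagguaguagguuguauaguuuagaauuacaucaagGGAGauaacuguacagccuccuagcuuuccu
MIRLET7C, chr21:16539828-16539911, plus strand: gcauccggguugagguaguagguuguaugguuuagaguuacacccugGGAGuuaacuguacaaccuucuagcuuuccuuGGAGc
MIRLET7A3, chr22:46112749-46112822, plus strand: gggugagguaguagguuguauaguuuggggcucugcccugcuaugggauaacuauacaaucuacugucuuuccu
MIRLET7B, chr22:46113686-46113768, plus strand: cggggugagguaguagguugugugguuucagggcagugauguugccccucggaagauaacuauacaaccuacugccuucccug

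The 3′ UTRs of the members were searched on the transcript's strand for CTACCTC, the complement of the seed (GENCODE 29, GRCh38, 1 principal transcript per gene). All 7 members held at least 1 match, against 8.60% of 18975 protein-coding genes with a 3′ UTR. LIN28B, HMGA2 and IGF2BP1 held 4 each, and at least 2 matches were found in 0.917% of genes. UTR length differs: in 3003 bases HMGA2 had 4 matches, as did 0.0851% of 2350 genes of similar length, while the 1 match of LIN28A in 3264 bases was reached by 16.1% of 2216 such genes. Several members were already known as let-7 targets when they were chosen, so these matches describe the genes and test nothing. Windows ending 1 base after the match are shown for the 4 sites of HMGA2 and for the first site of each other member, with CTACCTC in capitals.
HMGA2 site 1, chr12:65963293-65963320, plus strand: ggggcgccaacgttcgatttCTACCTCa
HMGA2 site 2, chr12:65964526-65964555, plus strand: aatatatccccactactcaataCTACCTCt
HMGA2 site 3, chr12:65964938-65964967, plus strand: ggactaattgacttgcaaagacCTACCTCc
HMGA2 site 4, chr12:65965791-65965820, plus strand: gttgtacaatcaaaacacactaCTACCTCt
HMGA1 site 1, chr6:34245822-34245851, plus strand: ccatttttcctctgttcacaaaCTACCTCt
LIN28A site 1, chr1:26427341-26427370, plus strand: ttggagtgcacagcctattgaaCTACCTCa
LIN28B site 1, chr6:105078805-105078834, plus strand: ttcctttacccggttgcaaagtCTACCTCa
IGF2BP1 site 1, chr17:49051054-49051083, plus strand: gcaatgctgtgtgcgaagtaaaCTACCTCa
IGF2BP2 site 1, chr3:185644220-185644249, minus strand: cgagaaaaacacacagaagaagCTACCTCa
IGF2BP3 site 1, chr7:23311795-23311824, minus strand: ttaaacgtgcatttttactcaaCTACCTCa

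Between D0 and D9, when cardiomyocyte markers rose, 4 of 7 members were called lower: LIN28A, LIN28B, HMGA1 and IGF2BP3. None was called higher, and HMGA2 and IGF2BP2 had higher levels at D9. Of all genes tested, 14.6% were called lower and 31.7% were called in either direction. The adjusted p was under 0.05 for 7 of 7 members, against 47.6% of genes, and the members' median log2 change was -1.21 against 0.08 over all genes. In the long culture from D9 to D90, 6 of 7 members were called lower, all but IGF2BP2, with 12% of genes called lower and 23.9% either way. Their median log2 change was -2.51 against -0.02, and 7 of 7 had an adjusted p under 0.05 beside 38.4% of genes. From D0 to D90, 6 of 7 were again called lower, with 19.2% of genes called lower and 40% either way, and 7 of 7 had an adjusted p under 0.05 beside 53.3% of genes. These comparisons share D0, D9 or D90 libraries with each other, so they are 3 views of 1 course and not separate tests. The CPM ranges of the groups did not overlap for any of the 7 members in any of these 3 comparisons. The share of all genes without overlap is not given here, so this describes the members only.

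**Figure D1:**
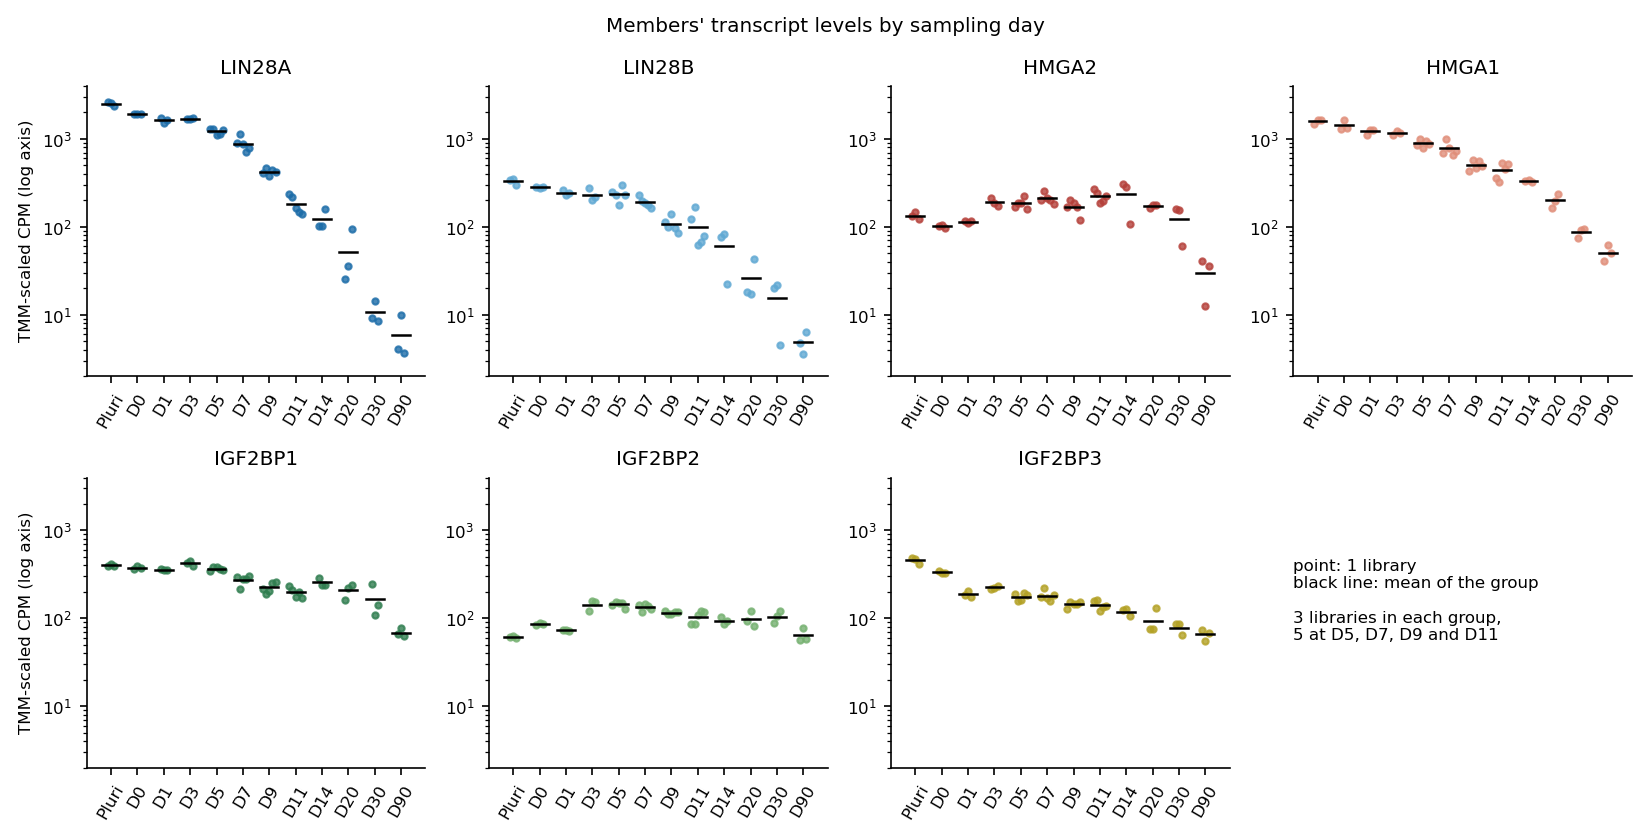
CPM (log axis) of the 7 members in each of 44 libraries by sampling day, with the mean of each group as a black line. LIN28A falls from 1924 at D0 to 5.95 at D90, HMGA2 is highest at D14 with 235, and IGF2BP2 stays between 61.5 and 145 on average.

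LIN28A (ENSG00000131914, chromosome 1, 26410778 to 26429722, plus strand) was the member that fell furthest. Its levels were 2636, 2539 and 2345 CPM in the Pluri libraries and 1942, 1918 and 1912 CPM at D0. At D9 they were 408, 378, 449, 423 and 465 CPM in replicates 1, 2, 3, 4 and 10, and at D90 they were 4.12, 10.0 and 3.70 CPM. Every D9 library was below every D0 library, and every D90 library was far below both. The group means were 1924 ± 16.2 CPM (SD, n = 3) at D0, 425 ± 34.1 (SD, n = 5) at D9 and 5.95 ± 3.53 (SD, n = 3) at D90. LIN28A was 4.53-fold lower at D9 than at D0, a log2 change of -2.18 (SE 0.26, edgeR adjusted p 9.5e-09). It was 72.1-fold lower at D90 than at D9, a log2 change of -6.17 (SE 0.37, edgeR adjusted p 8.7e-16). The 3 D90 libraries rest on 92, 144 and 66 counts, above the 3 counts taken as the smallest level a library can show. From D0 to D90 the fold was 327. Without D90 replicate 4, the highest of the 3, the log2 changes were -6.76 from D9 and -8.94 from D0, in place of -6.17 and -8.35.

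LIN28A fell in several steps. Of 77 tests of a member against the sampling day before, 7 were called, all lower, and 3 of these were of LIN28A. It was called at D9 against D7 (log2 -1.06, SE 0.23, edgeR adjusted p 0.0073), where 0.261% of genes were called lower. The same held at D11 against D9 (log2 -1.23, SE 0.23, edgeR adjusted p 0.0018; 1.24% of genes) and at D30 against D20 (log2 -2.28, SE 0.32, edgeR adjusted p 5.3e-05; 1.26% of genes). For D30 against D20 it was -1.52 without D20 replicate 3 (edgeR adjusted p 0.001), and the call was lost in a fit of those days alone (edgeR adjusted p 0.34). At D20 against D14 the log2 change was -1.23 with an adjusted p of 0.15 in edgeR. The D9 against D7 change passes the fold limit narrowly: without D7 replicate 10 it was -0.95. On the TPM scale neither it nor D11 against D9 passed, with limma adjusted p of 0.24 and 0.26.

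LIN28B (ENSG00000187772, chromosome 6, 104936616 to 105083332, plus strand), the paralog that is also found in fetal blood and liver, began lower and fell later. Its D0 libraries were at 287, 278 and 285 CPM, and its D9 libraries at 113, 139.8, 98.0, 85.1 and 100.4 CPM in replicates 1, 2, 3, 4 and 10. The D90 libraries were at 4.75, 3.62 and 6.33 CPM. The 3 groups were fully separate, with the widest relative spread at D90. Means were 283 ± 5.01 CPM (SD, n = 3), 107 ± 20.7 (SD, n = 5) and 4.90 ± 1.36 (SD, n = 3). The fall to D9 was 2.64-fold (log2 -1.40, SE 0.34, edgeR adjusted p 0.00077) and that from D9 to D90 was 21.8-fold (log2 -4.45, SE 0.44, edgeR adjusted p 2.7e-10).

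Among single steps LIN28B was called at D90 against D30, with a log2 change of -1.64 (SE 0.42, edgeR adjusted p 0.011; 2.44% of genes called lower). The D30 libraries were at 20.0, 4.49 and 21.6 CPM in replicates 1, 3 and 10, so the low replicate 3 overlapped the D90 range. This call was lost without D30 replicate 1 (edgeR adjusted p 0.053) and with the sequencing lane as a term (edgeR adjusted p 0.052), as well as in a fit of those days alone (edgeR adjusted p 0.39).

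HMGA2 (ENSG00000149948, chromosome 12, 65824131 to 65966295, plus strand) followed another course: its mean was above that of D0 from D1 to D30 and below it at D90. Its Pluri mean of 134 CPM was above that of D0 (D0 against Pluri log2 -0.40, edgeR adjusted p 0.5). It was also above the means of D1 (114) and D30 (124). Levels were 103, 104 and 98.0 CPM at D0 and 168, 187, 169, 120.4 and 201 CPM at D9. By D14 replicates 2 and 3 had 310.5 and 286 CPM while replicate 6 had 107, and by D90 replicates 2, 4 and 5 had 40.6, 12.5 and 35.9. All D9 libraries exceeded the D0 libraries, and all D90 libraries were below them. Means were 102 ± 3.16 CPM (SD, n = 3) at D0, 169 ± 30.4 (SD, n = 5) at D9 and 29.6 ± 15.0 (SD, n = 3) at D90. The log2 change at D9 was 0.74 (SE 0.27, edgeR adjusted p 0.025), a 1.67-fold higher level that is below the fold limit. With the sequencing lane as a term the adjusted p was 0.064, and on log2(TPM + 1) the change was 0.32 with a limma adjusted p of 0.43. Its fall from D9 to D90 was 5.69-fold (log2 -2.51, SE 0.30, edgeR adjusted p 1.5e-08).

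The step of HMGA2 that was called was D90 against D30. Before it the mean was 235 CPM at D14, 174 at D20 and 124 at D30, and all D30 libraries were below the D20 libraries (log2 -0.48, edgeR adjusted p 0.47). At D30 the libraries were at 158, 60.2 and 154.9 CPM in replicates 1, 3 and 10, and D90 was lower with a log2 change of -2.06 (SE 0.31, edgeR adjusted p 3.8e-05), a call that was lost in a fit of those days alone (edgeR adjusted p 0.27). At D30 the mean was still 122% of the D0 mean, though below the Pluri mean of 134 CPM, and at D90 it was 29.2% of the D0 mean. The highest D90 library, at 40.6 CPM, was below the lowest D30 library.

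HMGA1 (ENSG00000137309, chromosome 6, 34236873 to 34246231, plus strand), the relative of HMGA2 that is linked to dividing cells, fell steadily. At D0 its libraries were at 1289, 1638 and 1346 CPM and at D9 at 428, 469, 558, 498 and 578 CPM. At D90 they were at 41.0, 61.5 and 50.2 CPM. There was no overlap between the 3 days. Means were 1425 ± 187 CPM (SD, n = 3), 506 ± 62.0 (SD, n = 5) and 50.9 ± 10.3 (SD, n = 3). The fall to D9 was 2.81-fold (log2 -1.49, SE 0.15, edgeR adjusted p 3.2e-10) and the fall from D9 to D90 was 9.95-fold (log2 -3.31, SE 0.18, edgeR adjusted p 1.5e-16). Its called step was D30 against D20 (log2 -1.20, SE 0.18, edgeR adjusted p 0.00011). On the TPM scale that step had a limma adjusted p of 0.11, and in a fit of those days alone an edgeR adjusted p of 0.34.

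IGF2BP1 (ENSG00000159217, chromosome 17, 48997412 to 49055650, plus strand), the member that binds MYC and ACTB messengers, had no single step with an adjusted p under 0.05 before D90. Its libraries were at 367, 393 and 372 CPM at D0 and at 213, 204, 256, 263 and 187 CPM at D9. At D90 they were at 66.6, 77.6 and 62.7 CPM. The days did not overlap, although the distance between D0 and D9 was modest. The mean went from 377 ± 14.0 CPM (SD, n = 3) to 224 ± 33.1 (SD, n = 5), a log2 change of -0.75 (SE 0.16, edgeR adjusted p 0.00016) that misses the fold limit. On log2(TPM + 1) the same change was -1.26 (limma adjusted p 0.0028). At D90 it was 69.0 ± 7.72 CPM (SD, n = 3), 3.26-fold below D9 (log2 -1.70, SE 0.17, edgeR adjusted p 4.4e-10). The step from D30 to D90 was called (log2 -1.26, SE 0.18, edgeR adjusted p 2.4e-05), but its fold limit rests on D30 replicate 1, at 244 CPM beside 143 and 110.3. Without that library the log2 change was -0.88, and in a fit of those days alone the edgeR adjusted p was 0.24.

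IGF2BP2 (ENSG00000073792, chromosome 3, 185643739 to 185825056, minus strand), the family member that stays on in adult tissues, was the one whose level hardly fell. Its D0 libraries were at 83.9, 88.9 and 87.1 CPM and its D9 libraries at 121, 111, 118, 118 and 113 CPM. The D90 libraries were at 56.6, 77.5 and 58.7 CPM. D9 was thus the highest of the 3 days and D90 the lowest, without overlap. Its mean rose early, from 73.3 ± 1.72 CPM (SD, n = 3) at D1 to 143.6 ± 18.1 (SD, n = 3) at D3, which is 0.97 on the log2 scale (SE 0.14, edgeR adjusted p 1.6e-06; 1.07 without D3 replicate 1). D9 was 1.34-fold above D0 (log2 0.42, SE 0.13, edgeR adjusted p 0.0062), which on log2(TPM + 1) was 0.04 with a limma adjusted p of 0.94. The D90 mean was 1.81-fold below D9 (log2 -0.85, SE 0.13, edgeR adjusted p 1.7e-06) and 1.35-fold below D0 (log2 -0.43, SE 0.14, edgeR adjusted p 0.010). On log2(TPM + 1) these were -1.18 and -1.14, with limma adjusted p of 0.0067 and 0.0092, and without D90 replicate 4 the D90 against D9 value was -1.01 in edgeR.

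IGF2BP3 (ENSG00000136231, chromosome 7, 23310209 to 23470467, minus strand), known as an oncofetal protein, was the first member to be lower with an adjusted p under 0.05. It was at 484, 477 and 419 CPM in Pluri and at 349, 328 and 326 CPM at D0. At D1 it was at 187, 206 and 175 CPM, below every D0 library, with a log2 change of -0.82 (SE 0.16, edgeR adjusted p 0.00021). Lack of overlap between D1 and D0 was not particular to IGF2BP3, since it held for all 7 members. Of the other members only HMGA2 was higher at D1, and their edgeR adjusted p were 0.24 to 0.85. The share of all genes without overlap is not given here. At D9 IGF2BP3 was at 129, 144, 145, 152 and 152 CPM and at D90 at 74.5, 55.3 and 67.5 CPM. The D3 libraries, at 214.7, 223.8 and 236.3 CPM, lay above those of D1, and no step after D1 had an adjusted p under 0.05 in edgeR. The mean fell 2.32-fold from D0 (335 ± 12.8 CPM, SD, n = 3) to D9 (144 ± 9.21, SD, n = 5; log2 -1.21, SE 0.14, edgeR adjusted p 4e-09). From D9 to D90 (65.8 ± 9.72, SD, n = 3) it fell 2.19-fold (log2 -1.13, SE 0.15, edgeR adjusted p 1.1e-07). The 3′ end of IGF2BP3 overlaps MALSU1 on the opposite strand, which had a mean of 410 counts against 4708, and use of strand in counting is not given in the sources used here.

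Per transcript length the order of the 7 genes changed. At D0 the mean TPM ran from HMGA1 at 464 and LIN28A at 311 through IGF2BP3 at 57.1, IGF2BP1 at 43.1, LIN28B at 29.7 and IGF2BP2 at 18.5 to HMGA2 at 13.6, and no neighbours overlapped in range. At D9 the means of HMGA1 (139) and LIN28A (58.0) were still the highest, IGF2BP3, IGF2BP2, IGF2BP1 and HMGA2 lay between 20.9 and 17.9, and LIN28B was lowest at 8.93. TPM spread widely between D9 libraries, and the ranges of all neighbours in this order overlapped. Within every single D9 library, though, HMGA1 was above LIN28A, LIN28A was above IGF2BP3, and LIN28B was the lowest of the 7. At D90 the highest TPM were those of HMGA1 (8.93 ± 3.40), IGF2BP2 (8.09 ± 2.64) and IGF2BP3 (6.96 ± 0.86), which did not differ beyond their spread (SD, n = 3). IGF2BP1 followed at 3.36 and HMGA2 at 2.18, with LIN28A at 0.53 and LIN28B at 0.26, whose ranges overlapped. LIN28A thus went from the upper end of the 7 to the lower.

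Measured against the loss of pluripotency, LIN28A, LIN28B and HMGA1 fell later than POU5F1, NANOG and SOX2. All 8 of 8 pluripotency genes (POU5F1, NANOG, SOX2, PRDM14, ZFP42, DPPA4, TDGF1, DNMT3B) were called lower at D9 against D0, beside 14.6% of all genes. The median log2 change of these 8 was -7.52, beside the members' -1.21 and 0.08 over all genes. POU5F1, the core factor of the pluripotent state, was at 2.51% of its D0 mean by D5 and at 0.194% by D9. LIN28A was at 63.6% and 22.1% on these days, LIN28B at 83.6% and 37.9%, and HMGA1 at 62.9% and 35.5%. The first sampled day with a mean under 10% of D0 was D5 for POU5F1, D3 for SOX2 and D1 for PRDM14. For NANOG it was D3, and D5 in TPM. For LIN28A it was D11, for LIN28B D20 and for HMGA1 D30. HMGA2, IGF2BP2 and IGF2BP3 were not under 10% on any day, and IGF2BP1 was only at D90 in TPM. ZFP42 is the pluripotency gene nearest to the members, at 44.6% by D5 and under 10% at D11, or D9 in TPM.

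**Figure D2:**
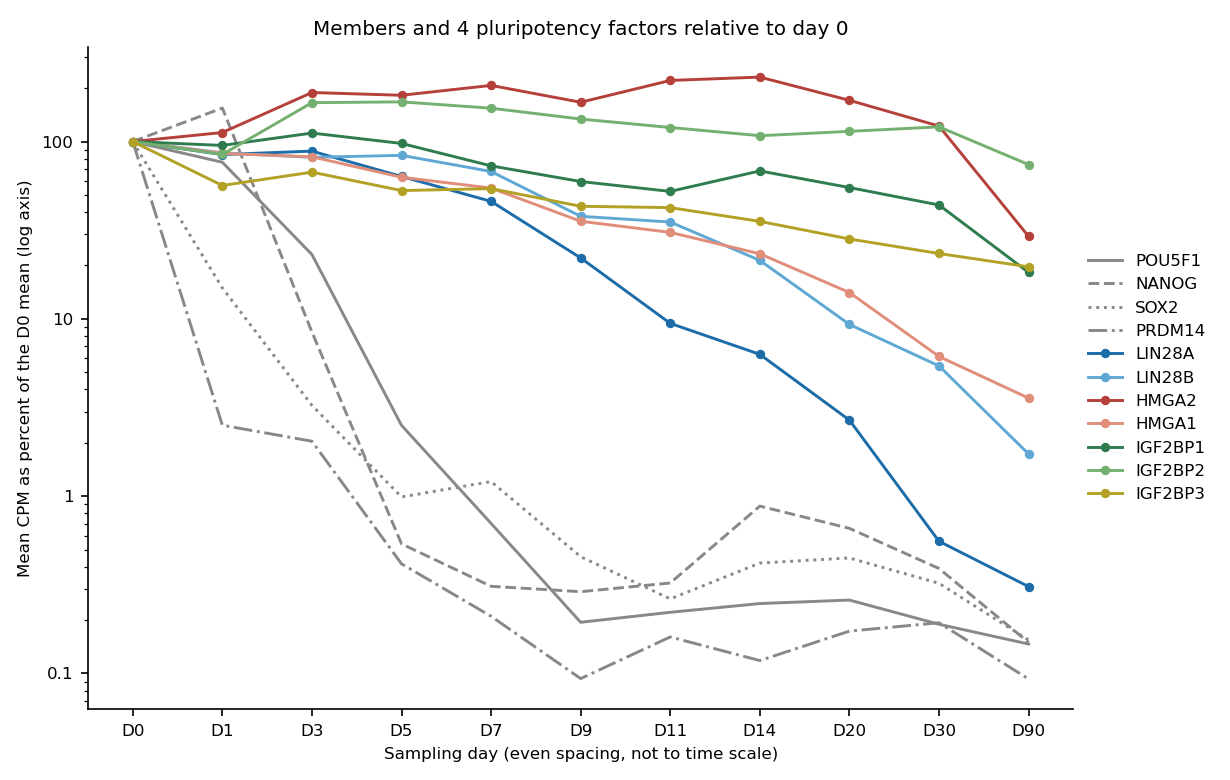
Mean CPM of the 7 members (coloured) and of 4 pluripotency factors (grey) as percent of the D0 mean, on a log axis, against sampling day at even spacing. By D9 POU5F1 is at 0.194% and LIN28A at 22.1%, while HMGA2 and IGF2BP2 are above 100%.

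Ratios of 2 transcripts in the same library were taken as log2 of TPM + 0.1, and where TPM is low they depend on that pseudocount. The log2 TPM ratio of LIN28A to POU5F1 was -1.06 ± 0.06 at D0 (SD, n = 3) and 5.69 ± 0.70 at D9 (SD, n = 5), a difference of 6.75. That of LIN28B to POU5F1 went from -4.44 ± 0.07 to 3.08 ± 0.86, a difference of 7.52. Both had p = 0.0357 by a two-sided exact permutation test, the smallest that 3 against 5 libraries allow, and 0.0402 after adjustment over 9 ratio tests. In both, all 5 D9 libraries lay above all 3 D0 libraries. The contrast of slow members with fast pluripotency genes was proposed with earlier results of these data known, so it describes them and is no independent evidence. After D9 the ratio of LIN28A to POU5F1 was lower again, at 0.01 ± 0.22 by D90 (SD, n = 3), a day on which POU5F1 rests on 26 to 53 counts per library.

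Within families the ratio of members also changed. The log2 ratio of LIN28B to LIN28A was -3.38 ± 0.02 at D0, -2.61 ± 0.37 at D9 and -0.61 ± 0.96 at D90, differences of 0.77 and 2.00. HMGA2 to HMGA1 went from -5.07 ± 0.17 to -2.86 ± 0.30 by D9, a difference of 2.21, and IGF2BP2 to IGF2BP1 from -1.21 ± 0.15 to 0.13 ± 0.12, a difference of 1.34. From D9 to D90, IGF2BP2 to IGF2BP1 rose by a further 1.08 and IGF2BP3 to IGF2BP1 by 0.92. These 6 differences also had exact permutation p = 0.0357 (adjusted 0.0402), with no overlap of the groups (n = 3, 5 and 3). HMGA2 to HMGA1 did not pass from D9 to D90, with a difference of 0.91 and exact permutation p = 0.143; 1 of the 3 D90 libraries, at -2.90, was inside the D9 range. With a pseudocount of 1 TPM that difference was 1.19 (adjusted exact permutation p 0.0357). In CPM in place of TPM every ratio kept its direction but no adjusted p was under 0.05. The groups still did not overlap in CPM for the ratios from D0 to D9 and for IGF2BP2 to IGF2BP1 from D9 to D90.

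**Figure D3:**
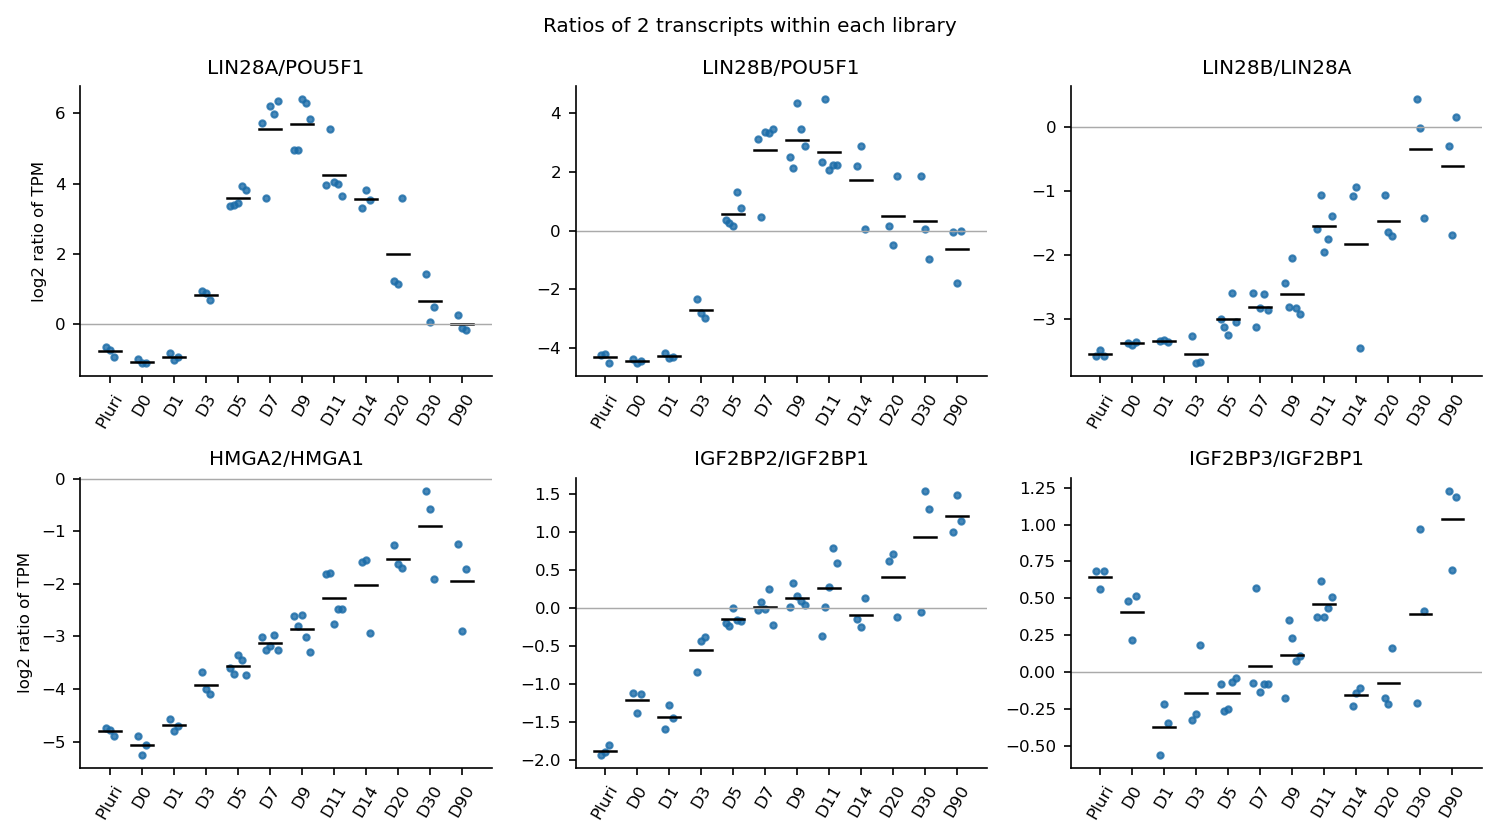
log2 ratio of TPM of 2 genes within each library by sampling day, with the group mean as a black line. LIN28A/POU5F1 is -1.06 at D0, 5.69 at D9 and 0.01 at D90, and HMGA2/HMGA1 goes from -5.07 at D0 to -2.86 at D9.

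Step by step, 7 of the 11 steps had no called member, and none of the 35 tests of a member before D9 was called. In those early steps 8 of 35 tests had an unadjusted p under 0.05 and 3 an adjusted p under 0.05 in edgeR. The share of all genes passing by p alone is not given for single steps, so these counts describe the members only. DESeq2 and limma also called none in the early steps. This was not a quiet time for other genes: 2.91% of all genes were called either way at D0 against Pluri, 13.5% at D1 against D0, 17.8% at D3 against D1, 10.1% at D5 against D3 and 3.65% at D7 against D5. In the later steps the share was 1.28% at D9 against D7, 1.63% at D11 against D9, 0.697% at D14 against D11, 0.0479% at D20 against D14 and 2.02% at D30 against D20. The 3 early changes with an adjusted p under 0.05 were those of IGF2BP3 at D1 and of IGF2BP2 at D0 against Pluri (log2 0.49, SE 0.14, edgeR adjusted p 0.032) and at D3. At D90 against D30, 3 members were called, LIN28B, HMGA2 and IGF2BP1, with 5.09% of genes called either way. The calls of D30 against D20 and D90 against D30 depend on the spread shared by all 44 libraries: in fits of the compared days alone, edgeR adjusted p was 0.24 to 0.39.

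Wells of the same day differed for several members from D11 on. At D11 replicates 1 and 2 had 237 and 220.2 CPM of LIN28A against 139 to 162 in replicates 5, 6 and 7, and 123 and 166 of LIN28B against 62.0 to 79.6. For HMGA1 the order was the other way, 359 and 325 CPM against 455 to 537. The same 2 libraries held 5232 and 9545 CPM of the 6 hepatic markers against 268 to 333, and 980 and 1128 CPM of 10 proliferation genes against 314 to 368. Their cardiomyocyte markers summed to 7260 and 4710 CPM against 17695 to 19152, and their RNA integrity numbers were 8.6 and 8 against 9.2 to 9.5. All 6 hepatic markers had more than 3 counts in all 5 libraries. The part of these in the members' levels was not tested. Without the 2 libraries the count of called members stayed at 4, 6 and 6 in the long comparisons and 7 over the steps, and LIN28A at D11 against D9 was -1.50 in place of -1.23.

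Later days had 1 such well each. D20 replicate 3 had 93.4 CPM of LIN28A beside 25.3 and 36.2, and 131.7 of IGF2BP3 beside 76.3 and 75.4. Its hepatic markers summed to 5223 CPM beside 2085 and 1144, and its proliferation genes to 1345 beside 302 and 243. Its fibroblast or epicardial markers summed to 1530 CPM beside 8266 and 2548. D14 replicate 6 was the highest D14 library in LIN28A, at 158 CPM beside 102 and 104. It was low in LIN28B, at 22.3 CPM beside 76.6 and 82.8, and in HMGA2, at 107 beside 310.5 and 286. Its proliferation genes were at 321 CPM beside 667 and 889, and its fibroblast or epicardial markers at 919 beside 3224 and 4559. D30 replicate 3 was low in LIN28B and HMGA2 too, with hepatic markers at 380 CPM beside 65.7 and 23.4. Its endothelial markers were at 117 CPM beside 36.3 and 21.1, and its fibroblast or epicardial markers at 5881 beside 3173 and 2448. D90 replicate 4 was the highest D90 library in LIN28A and the lowest in HMGA2, with cardiomyocyte markers at 50664 CPM beside 14991 and 19494 and hepatic markers at 213 beside 9.32 and 9.41. Its fibroblast or epicardial markers were at 2155 CPM beside 12566 and 6406. RNA integrity numbers were 9.3 in D20 replicate 3 beside 8.2 and 8, and 8.2 in D14 replicate 6 beside 7.4 and 9.8. They were 10 in D30 replicate 3 beside 9.5 and 7.4, and 9.5 in D90 replicate 4 beside 8.8 and 8. The part of these marker levels and RNA integrity numbers in the members' levels was not tested.

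Proliferation is a background to all of this, since LIN28, HMGA and IGF2BP genes are known in dividing cells. All 10 of 10 proliferation genes (MKI67, TOP2A, CCNB1, CDK1, CCNA2, BIRC5, AURKB, BUB1, MCM2, PCNA) were called lower at D9 than at D0, beside 14.6% of all genes. The median log2 change of the 10 was -1.51, against 0.08 over all genes. The summed CPM of the 10 was 1929 to 2008 at D0, 598 to 709 at D9 and 430 to 672 at D90. From D9 to D90 none of the 10 was called, beside 23.9% of all genes called either way. The median log2 change of the 10 was then -0.26, while the median of the 7 members was -2.51. The part of proliferation in the members' fall was not tested.

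Among 14 genes of LIN28 and let-7 processing, L1TD1 and TRIM71 were called lower at D9 against D0 and none was called higher, a share near the 14.6% of all genes called lower; the list's median log2 change was -0.37. TRIM71, a let-7 target and ubiquitin ligase of early embryos, was at 782 ± 7.51 CPM at D0 (SD, n = 3), 276 ± 63.1 at D9 (SD, n = 5) and 9.15 ± 7.03 at D90 (SD, n = 3). Its log2 changes were -1.50 (SE 0.27, edgeR adjusted p 1.7e-05) and -4.93 (SE 0.36, edgeR adjusted p 1.4e-13). L1TD1, an RNA-binding partner of LIN28A in stem cells, fell faster, from 457 ± 7.08 CPM at D0 to 14.5 ± 8.25 at D9 (log2 -4.98, SE 0.36, edgeR adjusted p 4.2e-14). In the D90 against D9 comparison, where 12% of all genes were called lower, 4 of 14 were: L1TD1, TRIM71, MSI1, an RNA-binding protein of progenitors, and XPO5, which exports precursor microRNAs. The core enzyme DICER1 was at 141 CPM at D0 and 136 at D9 (log2 -0.04, edgeR adjusted p 0.82).

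**Figure D4:**
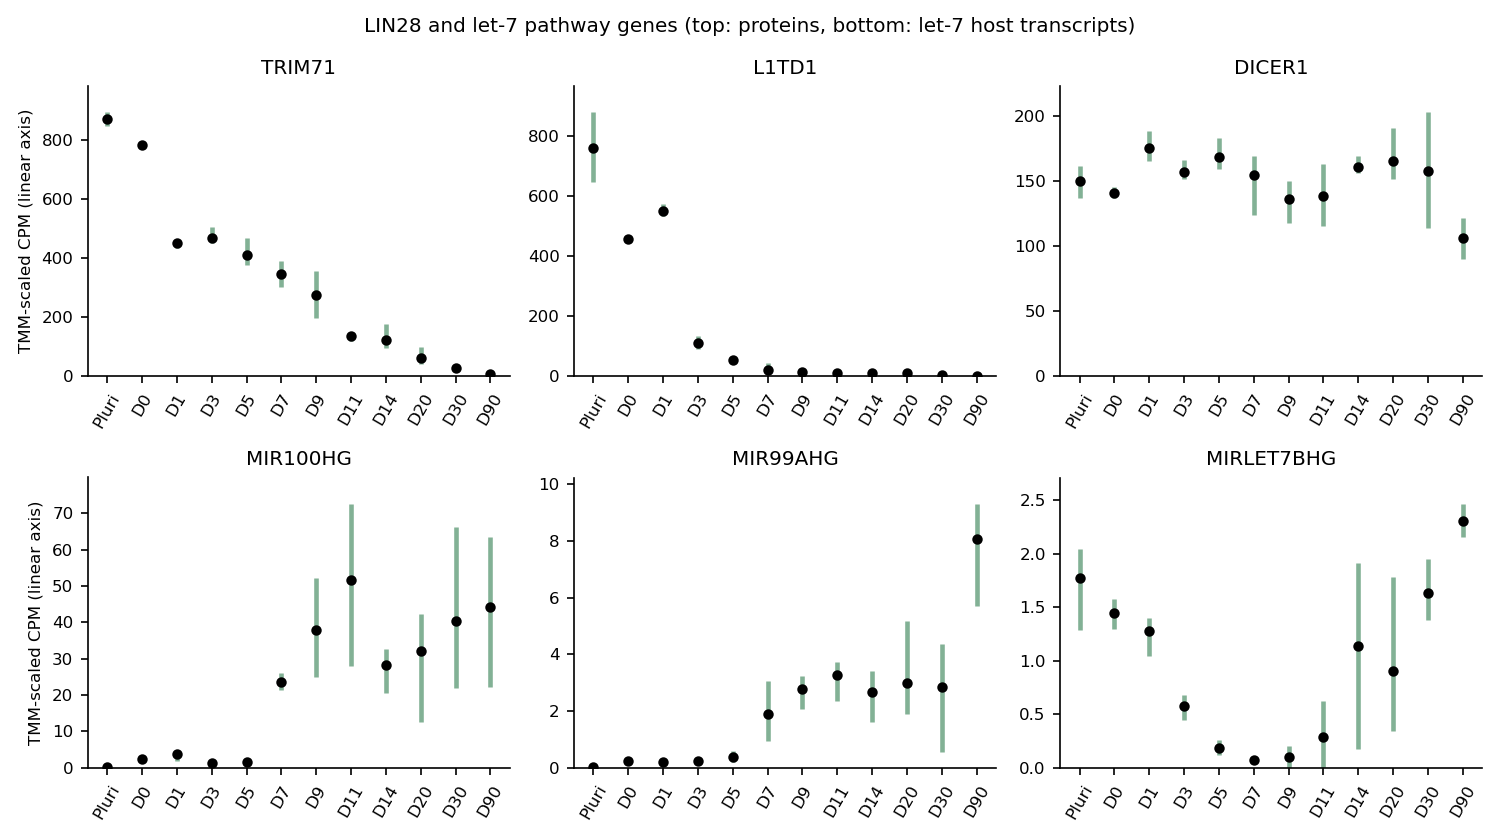
Mean CPM (points) and lowest to highest library (bars) of TRIM71, L1TD1, DICER1 and 3 let-7 host transcripts by sampling day, on linear axes that differ between panels. TRIM71 goes from 782 at D0 to 9.15 at D90, MIR100HG from 2.31 at D0 to 37.9 at D9, and MIRLET7BHG is lowest at D7 with 0.07.

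The let-7 microRNAs were not measured by these libraries: the rows of 10 let-7 family hairpin genes held at most 1 count in any library. Of the hosts in the list, 4 were tested, and MIRLET7DHG and MIRLET7A1HG were not found in GENCODE 29 by those symbols. Genes outside the list also hold hairpins on their strand. WDR82 holds MIRLET7G and SPACA6 holds MIRLET7E, and the levels of these hosts are not given here. AL158152.2 holds MIRLET7A1, MIRLET7F1 and MIRLET7D and had at most 3 counts in any library. AC048341.1 holds MIRLET7I and had a mean of 101 counts per library. MIR100HG, host of MIRLET7A2, rose from 2.31 ± 0.38 CPM at D0 (SD, n = 3) to 37.9 ± 10.1 at D9 (SD, n = 5; log2 4.03, SE 0.45, edgeR adjusted p 1.8e-09). Single steps were called higher at D0 against Pluri and D7 against D5 and lower at D3 against D1, and at D90 it was at 44.1 ± 20.7 CPM (SD, n = 3). MIR99AHG, host of MIRLET7C, rose from 0.25 ± 0.12 to 2.79 ± 0.43 CPM and on to 8.08 ± 2.06 at D90 (log2 3.47 and 1.53, edgeR adjusted p 2.7e-06 and 0.0043). At D0 it rests on 3 to 10 counts per library.

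MIRLET7BHG, host of the 2 hairpins without GGAG shown above, had the opposite early course. It was at 1.44 ± 0.14 CPM at D0 (39 to 47 counts), 0.10 ± 0.09 at D9 (0 to 6 counts) and 2.31 ± 0.15 at D90 (31 to 55 counts). The log2 changes were -3.73 and 4.41, with edgeR adjusted p of 5.5e-06 and 5.1e-07, and they rest on few counts. HUWE1, host of MIR98 and MIRLET7F2 and a broadly expressed ubiquitin ligase, was at 467 CPM at D0, 309 at D9 and 307 at D90. A host's level is no measure of its mature microRNA.

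Of 24 other let-7 targets and growth genes, 4 were called higher and 3 lower at D9 against D0, with a median log2 change of 0.24. These shares are near the 17.1% and 14.6% of all genes called higher and lower. From D9 to D90, 1 was called higher and 9 lower, with a median of -0.80 against -0.02 over all genes, of which 11.9% were called higher and 12% lower. Those called lower from D9 to D90 were ARID3A, ARID3B, E2F5, HIC2, IGDCC3, MYC, MYCN, NR6A1 and PRTG. Of these, MYC and NR6A1 were already called lower at D9 against D0. PRTG and IGDCC3, related surface proteins of the embryo, first rose: PRTG was at 55.5 CPM at D0, 490.1 at D9 and 15.5 at D90 (log2 3.14 and -4.99, edgeR adjusted p 8.8e-10 and 3.6e-13). IGDCC3 was at 28.3, 205 and 3.59 CPM (log2 2.86 and -5.83, edgeR adjusted p 4.4e-11 and 1.5e-16). NR6A1, a nuclear receptor of the early embryo, fell throughout, at 253, 84.5 and 8.15 CPM (log2 -1.58 and -3.39, edgeR adjusted p 1.2e-07 and 7.3e-13). CCND2, a cyclin, was the one called higher from D9 to D90, at 318 and 771 CPM (log2 1.28, edgeR adjusted p 3.7e-07).

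Among 9 RNAs known to be bound by IGF2BP proteins, IGF2 and H19, imprinted neighbours, were called higher and MYC lower at D9 against D0, beside 17.1% and 14.6% of all genes. IGF2 was at 6.31 ± 0.58 CPM at D0 (SD, n = 3), 1172 ± 690.3 at D9 (SD, n = 5) and 2270 ± 511 at D90 (SD, n = 3). Its D9 log2 change was 7.54 (SE 0.74, edgeR adjusted p 1.1e-10), and H19 changed by 6.39 (SE 0.65, edgeR adjusted p 2.7e-10). IGF2 was thus high on the days on which IGF2BP1 and IGF2BP3 were falling. At D90 against D9, CD44 was called higher and ACTB and MYC lower, with a median of 0.09 over the 9, beside 11.9% and 12% of all genes.

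By likeness of course over 12 group means of log2 CPM, among 2633 protein-coding genes, the closest to LIN28A were IMPA2 (r = 0.995), HMGA1 (0.995) and TOP1MT (0.992). LIN28B was closest to HMGA1 (0.993), IMPA2 (0.992) and LIN28A (0.992), and HMGA1 was close to LIN28A and LIN28B. HMGA2 was closest to AKAP12 (0.929), FAM107B (0.905) and ARID3A (0.896), which is itself in the list of let-7 targets. IGF2BP1 was closest to SMARCD1 (0.969), PTBP3 and INAVA, IGF2BP2 to HAPLN1 (0.924), HMCN1 and WDR86, and IGF2BP3 to GALNT7 (0.982), ARRB2 and ZNF138. Between members, r was 0.992 for LIN28A and LIN28B, 0.49 for LIN28A and HMGA2, and -0.05 for IGF2BP2 and IGF2BP3. The 12 points share libraries, time order and scaling, so r is given without a p.

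Overlapping and copied genes could add counts to the members. The antisense transcripts of HMGA2, LIN28B, IGF2BP1 and IGF2BP2 had mean counts of at most 13.6 per library against member means of 2611 to 7043, and 8 listed copies of HMGA1 had at most 8 counts in any library.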

How the data were processed

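Total RNA of 44 wells was sequenced. The deposited tables hold estimated counts per gene and TPM; per the submitters' processing notes cutadapt, STAR 2.5.2b, RSEM 1.2.31 and hg38 were used, and the annotation and the use of strand are not given in the sources used here. TPM values are the authors'. RNA integrity numbers (a score) and the sequencing lane (5 lanes) were taken from the deposited labels. All count columns matched a label (0 left over). Of the estimated counts 93.8% were whole numbers, and the rest were rounded. Of 60499 identifiers, 56769 were found in GENCODE 29 and 3730 were not, which keep their identifier.

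Genes were filtered with filterByExpr, scaled by TMM and tested over all 44 libraries and 12 groups with edgeR 4.0.16 (quasi-likelihood test, Benjamini-Hochberg adjustment over 22955 genes, R 4.3.3). A call needed an adjusted p under 0.05 and a log2 change of at least 1. Ratios used log2(TPM + 0.1) and a two-sided exact permutation test (scipy 1.17.1, Python 3.11.15). Alternatives used limma 3.58.1 on log2(TPM + 1) or log2(TPM + 0.1), DESeq2 1.42.0, other scalings and filters, a lane term, a replicate block and fits without each library, which kept the gene set and dispersion trend of the full fit. The fitting code was tested on simulated data. Counts hold no molecular identifiers, and 3 counts were taken as the floor of a library.

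The 7 genes and all lists were chosen with earlier results of these data known. All members are named. List genes are named where called or where a result turns on them. Likeness used the 3 protein-coding genes with the highest Pearson r to a member, among those with a group mean of at least 10 TPM and a log2 CPM range of at least 2. One gene that this rule names is not reported here. Replicate numbers were taken to pair wells where at least 3 pairs all had a correlation of deviations over 0.1, which D9 against D7 met (5 pairs, r 0.162 to 0.778) and where the block changed no member's call. D90 against D9, D14 against D11 and D20 against D14 also had r over 0.1, but with 2 pairs each.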

Additional observations from a re-analysis of the deposited data

Results flagged for a closer look

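In groups of 5 libraries, 1 library stood far from the other 4 in 5 of 52 cases examined. The cases share genes and libraries, so this count is not compared with chance. At D7 replicate 10 had a log2 TPM ratio of LIN28A to POU5F1 of 3.58, with the others at 5.73 to 6.34, and of LIN28B to POU5F1 of 0.46, with the others at 3.12 to 3.48. Its ratio of IGF2BP3 to IGF2BP1 was 0.57, with the others at -0.14 to -0.08. POU5F1 was at 33.7 CPM in that library and at 3.34 to 5.57 CPM in the other D7 libraries. At D11 replicate 2 had a ratio of LIN28A to POU5F1 of 5.54, with the others at 3.64 to 4.03, and of LIN28B to POU5F1 of 4.48, with the others at 2.07 to 2.36. POU5F1 was at 1.57 CPM there and at 2.85 to 5.15 CPM in the other D11 libraries.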

How the results depend on the processing

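No result changed direction under any alternative run. With no minimum fold change, 7 members passed at D9 against D0, beside 47.6% of all genes. Over the steps 13 member tests passed, and the share of all genes is not given there. The steps gave 4 calls with limma on log2(TPM + 1) without a filter and 2 in fits of the compared groups only. Leaving out each library gave 4 to 4 called members at D9 against D0, 6 to 7 at D90 against D9, 6 to 6 at D90 against D0 and 5 to 9 over the steps. With CPM in place of TPM the ratio differences from D0 to D9 were 6.94 for LIN28A/POU5F1, 7.70 for LIN28B/POU5F1, 0.76 for LIN28B/LIN28A, 2.21 for HMGA2/HMGA1 and 1.18 for IGF2BP2/IGF2BP1. From D9 to D90 they were 1.84 for LIN28B/LIN28A, 0.83 for IGF2BP2/IGF2BP1 and 0.55 for IGF2BP3/IGF2BP1. The adjusted exact permutation p of these 8 were 0.0536 or 0.0804. In CPM, D90 replicate 4 lay inside the D9 range for LIN28B/LIN28A and IGF2BP3/IGF2BP1, while the others of the 8 kept groups without overlap. With fewer ratios at the smallest exact permutation p of 0.0357, adjustment over 9 tests gives a larger adjusted p. HMGA2/HMGA1 from D9 to D90 was 1.19 with a pseudocount of 1 TPM (adjusted exact permutation p 0.0357). Without each library in turn the D0 to D9 ratio differences ran from 6.57 to 6.93 (LIN28A/POU5F1), 7.20 to 7.75 (LIN28B/POU5F1), 0.63 to 0.85 (LIN28B/LIN28A), 2.12 to 2.32 (HMGA2/HMGA1) and 1.25 to 1.38 (IGF2BP2/IGF2BP1). The D9 to D90 differences ran from 1.62 to 2.54 (LIN28B/LIN28A), 0.56 to 1.38 (HMGA2/HMGA1), 0.95 to 1.19 (IGF2BP2/IGF2BP1) and 0.82 to 1.09 (IGF2BP3/IGF2BP1). Fewer libraries cannot reach the threshold there by construction. With the replicate block over all libraries the called members were 4, 6 and 6 and the step calls 5, and with the block in D9 and D90 alone 5 members were called. Under the block LIN28A at D11 against D9 was -0.93, and LIN28B at D90 against D30 was -1.35 (edgeR adjusted p 0.052). IGF2BP3 at D90 against D9 was -1.17 (edgeR adjusted p 0.05) in the compared groups. A blocked fit of D90 and D0 alone was not possible, with 1 shared number. Among single members, 390 values under other settings kept their side of the threshold, 15 newly passed and 25 no longer passed. The fit without D11 replicates 1 and 2 was chosen after seeing the data. Depth limits the genes with few counts, MIRLET7BHG at D7 and D9 and POU5F1 at D90.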
